A study of Homo sapiens with 14 samples.

Results

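The transcripts described here encode 10 proteins that fold or clear proteins in the endoplasmic reticulum (ER) or that switch on the genes for doing so: HSPA5, HSP90B1, CALR, PDIA4, SDF2L1, DNAJB9, DNAJC3, HERPUD1, EDEM1 and XBP1. They were chosen by symbol, with earlier results of these data known. All 10 were found among 26171 rows of the K562 table and 19196 rows of the SIGM5 table. Poly(A) RNA was sequenced after 24 h in 14 libraries, 2 for each of 7 groups. The acute myeloid leukaemia line SIGM5 received the vehicle DMSO or 12.5 µM TETi76, which the series title presents as an inhibitor of TET dioxygenases, the enzymes that oxidise 5-methylcytosine. K562, an erythroleukaemia line, entered as clone K01 (TET2+/+ in the series text) with DMSO, 12.5 µM TETi76, 100 µM ascorbate, or 12.5 µM TETi76 plus 100 µM ascorbate, and as clone K18 (TET2-/-) with DMSO only. Ascorbate, vitamin C, helps TET enzymes by keeping their iron reduced. Each genotype was 1 clone, so genotype and clone cannot be told apart. The labels number the replicates without saying that they were separate cultures, so p-values measure the spread between libraries, which may be technical. These are bulk samples, in which fewer cells of a type and less RNA per cell cannot be told apart.

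The unfolded protein response is the cell's answer to misfolded protein in the ER. HSPA5 (BiP), the main Hsp70 chaperone of the ER, holds the sensors IRE1, PERK and ATF6 inactive until client proteins draw it away. IRE1 then splices XBP1 mRNA into the form that encodes an active transcription factor, ATF6 is cut free and moves to the nucleus, and PERK slows translation while ATF4 is made. XBP1 and ATF6 drive genes for chaperones and for ER-associated degradation (ERAD), the route by which misfolded proteins leave the ER for the proteasome, and ATF4 drives amino acid supply and stress-adaptation genes. Gene-level values such as these do not separate spliced from unspliced XBP1.

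The promoters of these genes are where such factors are known to act, so the windows of 250 bases before to 50 after each start, from RefSeq (GRCh38.p14), were searched on both strands; the 10 genes had 12 windows. The ER stress element ERSE joins a CCAAT box for NF-Y, after a gap of 9 bases of any kind, to a CCACG box for ATF6. ERSE-II holds the same boxes closer together, ATTGG (the CCAAT box on the opposite strand), a gap of 1 base and CCACG. ERSE letters were found for HSPA5, HSP90B1, CALR and XBP1 (4 of 10 genes; 0.0769% of all 35116 windows) and ERSE-II letters for HERPUD1 and SDF2L1 (2 of 10; 0.0541%). HERPUD1 also held TGATGNAA, the composite element known for ATF4 with C/EBP partners, on the opposite strand (1 of 10 genes; 3.62% of windows). TGACGTGG, the XBP1-type element, which contains the complement of CCACG, was in 0 of 10 (0.729% of windows), and the cyclic AMP element TGACGTCA, which shares its opening letters, was in 0 of 10 (1.85%). The stretches are shown because they separate the genes by element; each runs 5′ to 3′ on the gene's strand, lies upstream of the start, and has the fixed letters of the elements in capitals.
HSPA5: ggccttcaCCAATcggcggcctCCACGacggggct
XBP1: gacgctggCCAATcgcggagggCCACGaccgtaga
CALR: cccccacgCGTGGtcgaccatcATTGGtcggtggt
HSP90B1: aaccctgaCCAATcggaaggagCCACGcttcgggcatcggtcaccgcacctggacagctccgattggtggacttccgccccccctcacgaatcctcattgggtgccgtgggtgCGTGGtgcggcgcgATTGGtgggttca
HERPUD1: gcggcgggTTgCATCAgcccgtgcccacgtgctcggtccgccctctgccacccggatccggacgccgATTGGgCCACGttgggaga
SDF2L1: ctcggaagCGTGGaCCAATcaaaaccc
In GRCh38.p14 these lie at chr9:125241383-125241417 on the minus strand (HSPA5), chr22:28800595-28800629 on the minus strand (XBP1), chr19:12938376-12938410 (CALR), chr12:103930208-103930347 (HSP90B1), chr16:56931958-56932043 (HERPUD1) and chr22:21642106-21642132 (SDF2L1), the last 4 on the plus strand. A match describes letters only and was not tested as a site; for PDIA4, DNAJB9, DNAJC3 and EDEM1, 0 ERSE or ERSE-II matches says only that these letters are not in these windows.

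SIGM5 totals ran from 18893636 to 23639198 counts, and K562 libraries held an estimated 4.72 to 9 M (mega) reads, fewest in replicate 1 of TETi76 plus ascorbate. The sum of 10 erythroid markers was 8374 to 9648 FPKM in K01 DMSO but 4471 to 4673 in K18, where HBE1 averaged 4629 and 1244. SIGM5 had HBG1, HBG2, HBE1 and HBZ at 0 in all libraries. The sum of 10 myeloid markers was 19174 to 22490 CPM in SIGM5 and 47.2 to 74.4 FPKM in K562. Of the 6 lymphoid markers MS4A1 was at 0 in all libraries; their sum was 12.3 to 39.3 FPKM in K562 and 19.1 to 25.2 CPM in SIGM5, and that of 5 stromal, endothelial and epithelial markers was 22.8 to 50.2 FPKM and 3.17 to 21 CPM. TET2 transcript was 2.19 ± 0.289 FPKM in K01 and 3.13 ± 0.255 in K18 (SD, n = 2; limma, log2 difference 0.37, adjusted p = 0.314), so transcript level does not check the genotype named in the series text.

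In K01 with the vehicle DMSO, the chaperones CALR, HSP90B1 and HSPA5 and their partner SDF2L1 were the most abundant of the 10 transcripts. Levels are FPKM, read fragments scaled by transcript length and library size, so they can be set beside each other within K562. CALR, the lectin chaperone calreticulin, stood at 328 and 333 FPKM in the DMSO libraries. HSP90B1 (GRP94), the Hsp90 of the ER, stood at 207 and 209, and SDF2L1, a partner of HSPA5 and its J-domain proteins, at 145 and 132. HSPA5 read 111 in both libraries. XBP1, the transcription factor, stood at 71.1 and 62.3, and PDIA4 (ERp72), a disulfide isomerase, at 61.3 and 59.2. These neighbours, 66.7 ± 6.2 and 60.3 ± 1.5 (SD, n = 2), were nearer to each other than the replicates of XBP1. HERPUD1, a membrane protein of the ERAD complex, stood at 40 and 31.6. The lowest 3 were EDEM1, which directs misfolded glycoproteins to ERAD, at 10 and 9.9, DNAJC3 (p58IPK), a J-domain co-chaperone of HSPA5, at 7.32 and 8.2, and DNAJB9 (ERdj4), a J-domain protein that recruits HSPA5 to IRE1, at 7.25 and 6.13. DNAJC3 and DNAJB9, at 7.76 ± 0.624 and 6.69 ± 0.786, likewise differed by no more than the replicates of DNAJB9.

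**Figure D1:**
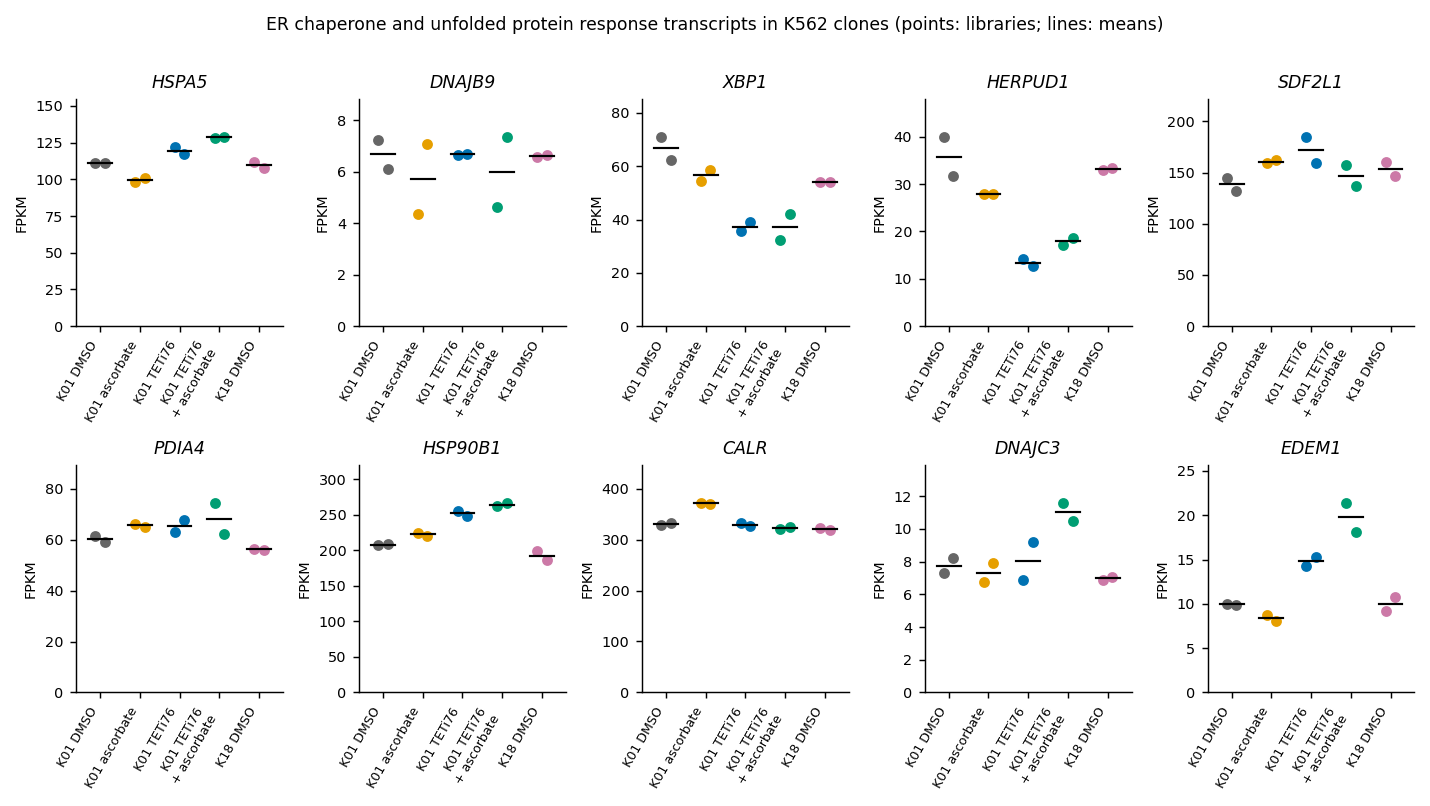
FPKM of the 10 transcripts (vertical axes, each from 0) in the 5 K562 groups, with a point for each library and a line for each group mean of 2. HERPUD1 and XBP1 are lower in the 4 libraries with TETi76 than in the other 6, EDEM1 is higher in those 4, and DNAJB9 differs most between replicates of the groups with ascorbate.

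Across the 5 K562 groups the 10 transcripts differed in how far and which way they varied. Group means of HERPUD1 spanned 1.35 on the log2(FPKM + 1) scale, those of EDEM1 1.15 and those of XBP1 0.83. DNAJC3 spanned 0.59, HSP90B1 0.46, HSPA5 0.36, SDF2L1 0.31, PDIA4 0.27, DNAJB9 0.22 and CALR 0.21. The ends differed by member: HERPUD1 was highest in K01 DMSO and lowest in K01 TETi76, whereas EDEM1, HSPA5, HSP90B1, PDIA4 and DNAJC3 were highest in TETi76 plus ascorbate. For DNAJB9 the gap between the 2 ascorbate libraries was 0.59, wider than its span of means. Over the 10 libraries, as a description of points that share 5 groups and 1 table, XBP1 and HERPUD1 ran together (Pearson r = 0.91), as did HSPA5 and EDEM1 (0.92), while HERPUD1 ran opposite to HSP90B1 (-0.87) and XBP1 opposite to EDEM1 (-0.86).

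In SIGM5, TETi76 was compared with DMSO to see how the inhibitor changed these transcripts in a myeloid line. HERPUD1, of the ERAD complex, and DNAJC3, the co-chaperone, rose, each by about the same factor, and the chaperones did not pass the test. Values are CPM, counts scaled to library size with TMM factors and not corrected for length. HERPUD1 was 51.9 and 57.8 CPM with DMSO and 79.4 and 82.5 with TETi76, so that both treated libraries lay above both controls. The log2 change was 0.56 (SE 0.11; 1.47-fold; edgeR quasi-likelihood test, Benjamini-Hochberg adjusted p = 0.0047). DNAJC3 was 156 and 160 CPM with DMSO and 255 and 207 with TETi76, again without overlap. Its log2 change was 0.55 (SE 0.11; 1.46-fold; edgeR adjusted p = 0.00525). These were 2 of 10 members called, both higher, where 4.13% of 11340 genes tested were called and 2.58% called higher; 3 of 10 had an unadjusted p under 0.05.

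The remaining 8 transcripts did not pass the test in SIGM5. DNAJB9 was 6.92 and 9.58 CPM with DMSO and 13 and 12 with TETi76, a log2 difference of 0.59 that missed the threshold (SE 0.18; edgeR adjusted p = 0.063). DNAJB9 rested on 129 to 310 counts a library. HSPA5 was 995 and 1015 CPM with DMSO and 1124 and 1143 with TETi76 (log2 difference 0.17, 95% confidence interval -0.02 to 0.36; edgeR adjusted p = 0.355). Groups of HSPA5 did not overlap, but 46.2% of all genes tested did not overlap either, against 6 of 10 here. XBP1 was 160 and 142 with DMSO and 155 and 149 with TETi76, the treated libraries lying between the controls (0.01, interval -0.22 to 0.23). SDF2L1 gave 0.20, PDIA4 -0.21, HSP90B1 -0.12, CALR -0.11 and EDEM1 -0.04 as log2 differences, with edgeR adjusted p from 0.354 to 0.914. The median over the 10 was 0.09, beside 0.00 over all genes tested. Without TETi76 replicate 1, 0 of 10 were called (adjusted p of HERPUD1 0.144 and of DNAJC3 0.51), and without TETi76 replicate 2 HERPUD1 was not called (0.146). DNAJB9 was called without DMSO replicate 2 (0.000639) or with no filter on low counts (0.0204), and SDF2L1 without DMSO replicate 1 (0.0397).

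**Figure D2:**
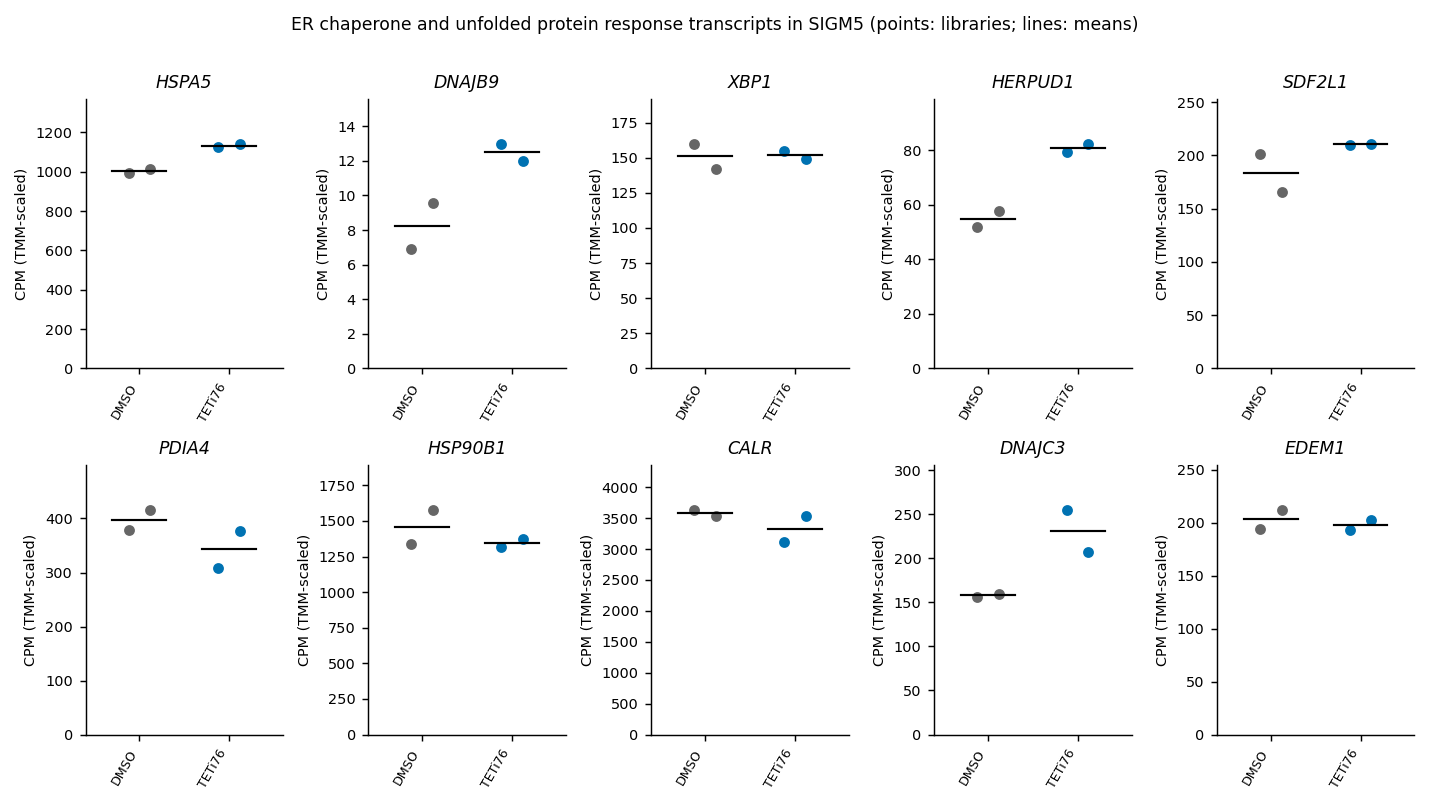
TMM-scaled CPM of the 10 transcripts (vertical axes, each from 0) in the 2 DMSO and 2 TETi76 libraries of SIGM5, with a line for each mean. HERPUD1 and DNAJC3 are higher in both TETi76 libraries and passed the test; DNAJB9 is also higher in both but did not pass.

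Calls in the wider ER gene lists in SIGM5 stand beside 4.13% of 11340 genes tested being called, 2.58% higher and 1.54% lower. Of 9 genes of the PERK and ATF4 arm 0 were called higher and 1 lower, ASNS, asparagine synthetase (log2 -0.49; edgeR adjusted p = 0.0311). ASNS lost its call without either TETi76 library (up to 0.42), with the replicate block (0.0643) and in DESeq2 (0.0594). Of 10 sensors, proteases and factors tested edgeR called 0 (2 at an unadjusted p under 0.05), as did DESeq2. PPIB, a prolyl isomerase of the ER, was the 1 lower of 18 other folding factors (-0.50, adjusted p = 0.0219; 0.763 without TETi76 replicate 1). For ERAD 15 genes were tested, and the other 3 of the list were not matched by symbol. DERL3, a derlin, was called lower (-0.77) and lost its call without either TETi76 library. For disulfide isomerases and oxidases (14) and for translocation and traffic (20 tested) edgeR called 0, with 2 and 1 at an unadjusted p under 0.05, and DESeq2 called 0. ITPR2, an inositol trisphosphate receptor, was the 1 higher of 6 calcium genes (0.51, adjusted p = 0.0339), not called without DMSO replicate 2 or either TETi76 library, or in DESeq2 (0.0682). Of 10 myeloid markers 4 were called lower and 1 higher, and their sum was 22419 to 22490 CPM with DMSO and 19174 to 19826 with TETi76; their part in the result was not tested.

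In K01 with TETi76 against DMSO, HERPUD1 and XBP1 fell and EDEM1, SDF2L1 and HSP90B1 rose. HERPUD1 had the largest change of the 10 and went the opposite way from SIGM5. It was 40 and 31.6 FPKM with DMSO and 14.1 and 12.7 with TETi76, so that both treated libraries lay far below both controls. The log2 change was -1.35 (SE 0.12; 0.39 of the control level on the log2(FPKM + 1) scale; limma, Benjamini-Hochberg adjusted p = 6.15e-05). XBP1 was 71.1 and 62.3 with DMSO and 35.6 and 39.2 with TETi76, both treated libraries below both controls. Its log2 change was -0.82 (SE 0.12; limma adjusted p = 0.00155). The 2 called lower and 3 called higher make 5 of 10, where 23.3% of 12528 genes tested were called, 9.61% higher and 13.7% lower.

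The 3 that rose were a degradation factor and 2 chaperones or partners. EDEM1 was 10 and 9.9 FPKM with DMSO and 14.3 and 15.3 with TETi76, with no overlap (log2 change 0.53, SE 0.12; limma adjusted p = 0.014). HSP90B1 was 207 and 209 with DMSO and 256 and 248 with TETi76 (0.28, SE 0.05; limma adjusted p = 0.00479). SDF2L1 was 145 and 132 with DMSO and 185 and 159 with TETi76 (0.31, SE 0.09; limma adjusted p = 0.0406). HSP90B1 showed the smallest change of the 5 with the smallest standard error. Of the others, HSPA5 was 122 and 117 with TETi76 (0.11, interval -0.01 to 0.23; limma adjusted p = 0.188) and PDIA4 63.1 and 67.9 (0.12; adjusted p = 0.379). CALR, at 332 and 327, gave -0.00 (interval -0.10 to 0.09). DNAJC3 and DNAJB9 gave 0.03 and 0.00 with intervals of -0.31 to 0.38 and -0.51 to 0.52, so the direction of both was not resolved. In all, groups did not overlap for 7 of 10, beside 63.3% of all genes. The median over the 10 was 0.07 and the mean -0.08, opposite in sign, with a median of -0.01 over all genes. EDEM1 was not called without DMSO replicate 1 (0.0647), DMSO replicate 2 (0.069) or TETi76 replicate 2 (0.0793). SDF2L1 was not called without DMSO replicate 1 (0.0659), DMSO replicate 2 (0.201) or TETi76 replicate 1 (0.232), with no filter on low values (0.0774) or in a fit of these groups alone (0.0578), and HSPA5 was called under quantile normalization (0.24, adjusted p = 0.0156).

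Around these members, the PERK and ATF4 arm stood lowest among the ER and stress lists of K01 under TETi76. Of its 9 genes 8 were called lower and 0 higher, where 13.7% of all genes were called lower, and the list median was -1.59. The gene lists were chosen with earlier results of these data known, so these counts describe the list and do not test it. CHAC1, a glutathione-degrading enzyme induced by ATF4, was 39.7 ± 4.26 FPKM with DMSO and 1.86 ± 0.42 with TETi76 (SD, n = 2; log2 -3.83, limma adjusted p = 1.19e-06). SESN2, sestrin 2, was 68.5 ± 3.39 and 16.2 ± 1.06 (-2.02, adjusted p = 1.09e-06). Of 11 sensors, proteases and factors 2 were called higher and 4 lower. The factor ATF6 (-0.75) and its relative ATF6B (-0.48) were among those lower, with MBTPS1 and NFYB, which the naming rule passed over. CREB3L2 (0.68) and CREB3 (0.91), membrane-bound factors of the bZIP type, were higher; CREB3 was not called without DMSO replicate 1 or TETi76 replicate 1, at up to 0.0553.

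Calls in the other ER lists of K01 stand beside 23.3% of all genes being called, 9.61% higher and 13.7% lower. Folding, redox and ERAD lists held calls both ways, whereas translocation and traffic held only higher and calcium genes only lower calls. HYOU1, the Hsp110-type exchange factor of HSPA5, fell by 0.38 (limma adjusted p = 0.00574), 1 of 2 called lower of 18 other folding factors. CNPY2, the other, gave -0.35 and lost its call without DMSO replicate 2 or TETi76 replicate 2 (up to 0.147), under quantile normalization (0.102) and in a fit of these groups alone (0.0551); FKBP14, outside the naming rule, was the 1 higher. In ERAD 4 of 18 were called higher and 2 lower. UFD1L, the p97 cofactor, rose by 0.64 and VIMP (SELENOS), of the derlin complex, by 0.45, and SEL1L and DERL3, outside the naming rule, were the lower 2. SEC61A1, the channel subunit of the translocon, was 49.6 ± 2.91 FPKM with DMSO and 70.1 ± 2.77 with TETi76 (0.49, adjusted p = 0.00268), 1 of 3 higher and 0 lower among 22 translocation and traffic genes. SEC61B, at 0.37, lost its call without DMSO replicate 2 or either TETi76 library (up to 0.127). PRDX4, the ER peroxiredoxin, was called higher (0.58; not without DMSO replicate 1 or TETi76 replicate 1, up to 0.0732) and ERP29 lower (-0.57), of 14 disulfide isomerases and oxidases. Of 6 calcium genes 3 were lower and 0 higher, led by ATP2A3, the SERCA3 pump (-1.24, adjusted p = 5e-05), with ITPR3 at -0.50 (0.0575 without DMSO replicate 2). Of 10 erythroid markers 6 were called lower, and their sum was 8374 to 9648 FPKM with DMSO and 7925 to 8278 with TETi76. Of 7 myeloid markers tested 1 was called higher and 0 lower, with sums of 10 markers of 47.2 to 54.6 FPKM with DMSO and 65.5 to 74.4 with TETi76. The part of these markers in the result was not tested.

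TETi76 with ascorbate was set against ascorbate alone, a comparison that shares no library with the one before. HERPUD1 and XBP1 again fell, EDEM1 and HSP90B1 again rose, and here HSPA5 and DNAJC3 rose and CALR fell. That is 7 of 10 called, 4 higher and 3 lower, where 30.7% of 12528 genes were called, 12.8% higher and 17.8% lower. EDEM1 was 8.7 and 8.02 FPKM with ascorbate and 21.4 and 18.1 with both agents, far apart (log2 change 1.15, SE 0.12; 2.21-fold; limma adjusted p = 0.000168). HERPUD1 was 27.8 in both ascorbate libraries and 17.1 and 18.7 with both agents (-0.61, SE 0.12; limma adjusted p = 0.00419). XBP1 was 54.6 and 58.6 with ascorbate and 32.4 and 42.1 with both (-0.60, SE 0.12; limma adjusted p = 0.00549). For each of these 3 the groups did not overlap.

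Among the chaperones and co-chaperones, HSPA5, HSP90B1 and DNAJC3 rose and CALR fell. HSPA5 was 98.4 and 101 FPKM with ascorbate and 128 and 129 with both agents (0.36, SE 0.06; 1.28-fold; limma adjusted p = 0.0013). HSP90B1 was 225 and 221, then 262 and 267 (0.24, SE 0.05; limma adjusted p = 0.00665). Replicates of these 2 chaperones lay close together, and the treated libraries were all above the ascorbate libraries. CALR went the other way, from 372 and 370 to 321 and 324 (-0.20, SE 0.04; limma adjusted p = 0.00623). DNAJC3 went from 6.74 and 7.9 to 11.6 and 10.5 (0.54, SE 0.15; limma adjusted p = 0.0261). It was not called without ascorbate replicate 1 (0.132), without TETi76 plus ascorbate replicate 1 (0.113) or 2 (0.0549), or in a fit of these groups alone (0.051). SDF2L1 (159 and 162, then 157 and 137; -0.13), PDIA4 (0.05) and DNAJB9 (0.06) did not pass, with limma adjusted p of 0.331, 0.716 and 0.869. DNAJB9 read 4.37 and 7.08 with ascorbate and 4.65 and 7.37 with both agents, so its replicates differed more than its groups. The median over the 10 was 0.06, beside -0.01 over all genes, and 8 of 10 did not overlap, beside 62.9% of all genes.

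**Figure D3:**
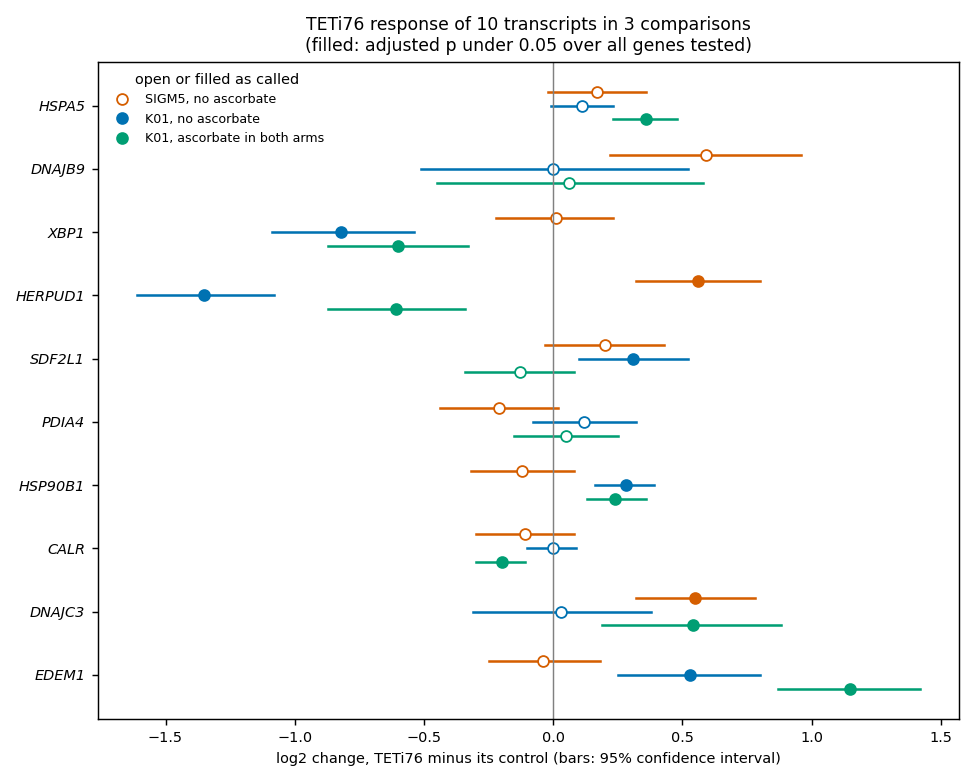
Log2 change of each of the 10 transcripts with TETi76 against its own control (horizontal axis, bars are 95% confidence intervals), in SIGM5, in K01 without ascorbate and in K01 with ascorbate in both arms; filled points passed an adjusted p of 0.05 over all genes tested. HERPUD1 lies at 0.56 in SIGM5 and at -1.35 and -0.61 in K01, and EDEM1 at -0.04, 0.53 and 1.15.

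With ascorbate in both arms, several ER lists held calls in both directions, where 12.8% of all genes were called higher and 17.8% lower. In the PERK and ATF4 arm 3 of 9 were called higher and 6 lower, with a median of -0.73. PPP1R15A (GADD34), which restores translation after PERK, was 45.1 ± 4.38 FPKM with ascorbate and 83.3 ± 0.347 with both agents (SD, n = 2; 0.87, limma adjusted p = 0.000126), and ATF3 rose by 0.57. DDIT3 (CHOP), outside the naming rule, was the remaining higher gene. CHAC1 (-3.01) and ATF4 itself (-1.07) were among the 6 lower. Of 11 sensors and factors 4 were higher, CREB3, CREB3L2 and, outside the rule, the sensor genes ERN1 (IRE1) and EIF2AK3 (PERK), and ATF6B (-0.54) and ATF6 (-0.51) were lower. ATF6 lost its call without ascorbate replicate 1 or TETi76 plus ascorbate replicate 1, at up to 0.0691, and CREB3 (0.90) without ascorbate replicate 2, at 0.0549. Of 18 ERAD genes 7 were higher and 1, DERL3, lower, where 12.8% of all genes were higher; UFD1L rose by 0.79. EDEM2, a paralogue of EDEM1, gave 0.64 and lost its call without ascorbate replicate 1 or TETi76 plus ascorbate replicate 2 (up to 0.0614). SEC11C, of the signal peptidase, rose by 0.93 and SEC61A1 by 0.43, among 5 higher and 1 lower (SSR4, not called without ascorbate replicate 1 or under quantile normalization) of 22 translocation and traffic genes. Of 18 folding factors 2 were higher and 0 lower, of 14 disulfide isomerases and oxidases 3 were higher and 2 lower, and of 6 calcium genes 1 was higher and 2 lower, ATP2A3 (-1.22) and ITPR3 (-0.60). Erythroid markers were lower in 7 of 10, with sums of 9719 to 10136 FPKM with ascorbate and 6780 to 7017 with both agents. Myeloid markers were higher in 2 of 7 tested, with sums of 10 markers of 47.4 to 52.6 and 59.2 to 66.1 FPKM, and lymphoid markers in 1 of 3. The part of these markers in the result was not tested.

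**Figure D4:**
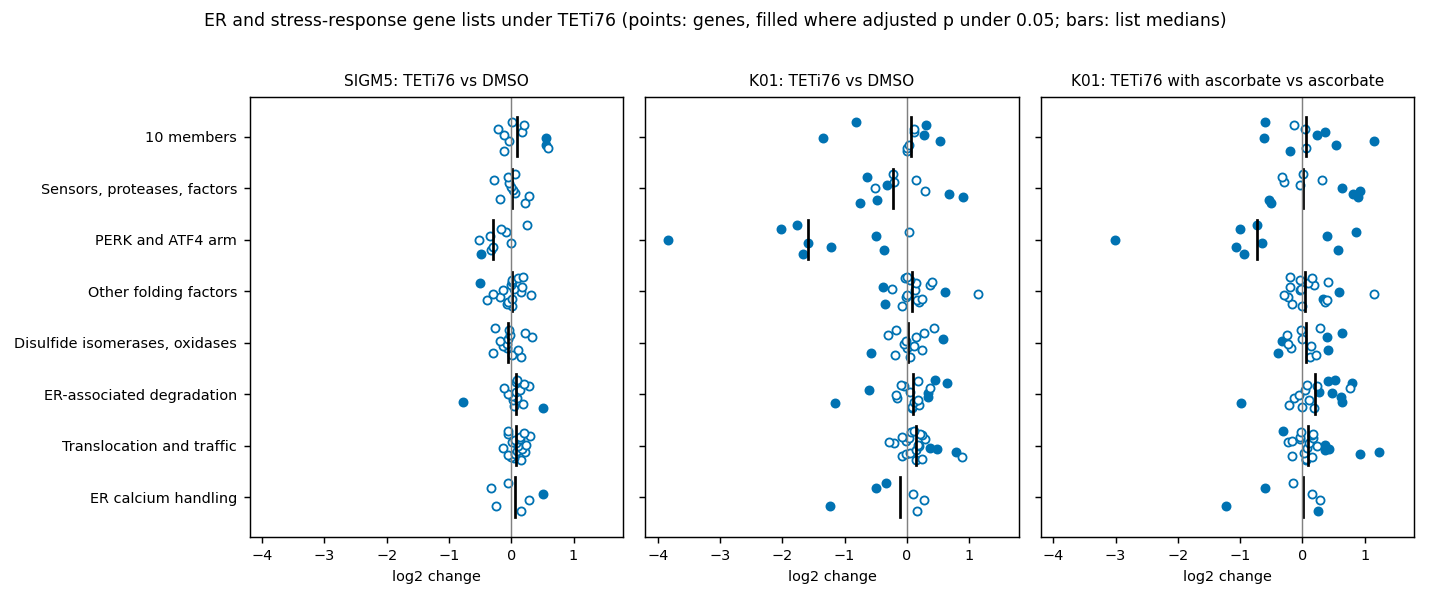
Log2 change of each gene (points, filled where the adjusted p was under 0.05) by list, with list medians as bars, for the 3 comparisons of TETi76 with its own control. The PERK and ATF4 arm has medians of -0.30 in SIGM5, -1.59 in K01 and -0.73 in K01 with ascorbate, and the other lists have medians between -0.22 and 0.21.

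The TETi76 change in K01 was then set against that in SIGM5 for each transcript, as the difference of the separately fitted log2 changes. HERPUD1 differed most, by -1.91 (SE 0.16; 95% confidence interval -2.24 to -1.57; adjusted p = 4.76e-09), since it fell in K01 and rose in SIGM5. XBP1 differed by -0.82 (SE 0.16; adjusted p = 0.00128), with no change called in SIGM5. HSP90B1 differed by 0.40 (SE 0.11; adjusted p = 0.0155) and EDEM1 by 0.56 (SE 0.16; adjusted p = 0.0235), both more positive in K01. These p-values combine the edgeR and limma fits, and 4 of 10 members were called, 2 more positive and 2 more negative in K01, where 12% of 9740 genes tested in both tables were, 4.91% more positive and 7.13% more negative. For HSPA5 the difference was -0.06 with an interval of -0.28 to 0.15, and for CALR 0.11 with -0.10 to 0.31. DNAJC3, called in SIGM5 and not in K01 without ascorbate, gave -0.52 (adjusted p = 0.0854), so its change was not shown to differ between the lines; without K01 TETi76 replicate 2 the adjusted p was 0.037. HSP90B1 was not called without SIGM5 DMSO replicate 2 (0.0591), TETi76 replicate 1 (0.157) or TETi76 replicate 2 (0.0693). EDEM1 was not called without K01 DMSO replicate 1 (0.0823) or 2 (0.0884), K01 TETi76 replicate 1 (0.0557) or 2 (0.109), or SIGM5 TETi76 replicate 1 (0.133) or 2 (0.0719). PDIA4, at 0.33 (adjusted p = 0.132), was called under quantile normalization (0.0351) and without SIGM5 DMSO replicate 1 (0.0481). The median over the 10 was 0.02 and the mean -0.24, beside a median of -0.01 over all genes. In the PERK and ATF4 arm 6 of 9 were more negative in K01 and 0 more positive (median -1.18).

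Ascorbate alone was compared with DMSO in K01, sharing the DMSO libraries with the TETi76 comparison. No member passed: limma called 0 of 10, where 0.479% of genes tested were called, 0.168% higher and 0.311% lower. An unadjusted p under 0.05 was seen for 4 of 10, and no share of all genes is given at that threshold. HERPUD1, at 27.8 in both ascorbate libraries against 40 and 31.6, gave a log2 difference of -0.34 (interval -0.61 to -0.08; limma adjusted p = 0.277). HSPA5, at 98.4 and 101 against 111 in both controls, gave -0.15 (adjusted p = 0.318), and CALR, at 372 and 370 against 328 and 333, gave 0.17 (adjusted p = 0.166). SDF2L1, at 159 and 162 against 145 and 132, gave 0.21 (adjusted p = 0.406). Groups of these 4 did not overlap, as for 8 of 10 in all and 42.8% of all genes. XBP1 and EDEM1 both gave -0.23 (adjusted p of 0.502 and 0.514). The median over the 10 was -0.11, beside -0.00 over all genes. In the PERK and ATF4 arm 3 of 9 were called lower and 0 higher: TRIB3, the pseudokinase induced by ATF4 (-0.88), ASNS (-0.83) and, outside the rule, SESN2 (-0.70). TRIB3 lost its call with each of the 4 libraries left out in turn (up to 0.0799) and ASNS without DMSO replicate 1 (0.0531). In the other ER lists limma called 0, with 0 to 4 genes of a list at an unadjusted p under 0.05.

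Adding ascorbate to TETi76 was compared with TETi76 alone. Again limma called 0 of 10, where 0.726% of genes were called, 0.247% higher and 0.479% lower. An unadjusted p under 0.05 was seen for 4 of 10, and no share of all genes is given at that threshold. HERPUD1, at 17.1 and 18.7 against 14.1 and 12.7, gave 0.39 (interval 0.13 to 0.66; limma adjusted p = 0.165). EDEM1, at 21.4 and 18.1 against 14.3 and 15.3, gave 0.39 (0.11 to 0.67; adjusted p = 0.19), and DNAJC3, at 11.6 and 10.5 against 6.88 and 9.2, gave 0.43 (adjusted p = 0.248). In each of these 3 the libraries with ascorbate were the higher, without overlap; 7 of 10 members and 42% of all genes did not overlap. SDF2L1 gave -0.23 (adjusted p = 0.308), and XBP1 -0.01 with an interval of -0.29 to 0.26. In the PERK and ATF4 arm 2 of 9 were called higher, ATF3 (0.63, adjusted p = 0.0307) and PPP1R15A (0.49, adjusted p = 0.0495), and neither was called with any of the 4 libraries left out (up to 0.149 and 0.21) or in a fit of these groups alone (0.16 and 0.142). PPP1R15A also lost its call with a pseudocount of 0.1 (0.0518), no filter on low values (0.0835) or the replicate block (0.0766). In the other ER lists limma called 0, with 0 to 7 genes of a list at an unadjusted p under 0.05. Erythroid markers were called lower in 3 of 10, with sums of 7925 to 8278 FPKM with TETi76 and 6780 to 7017 with both agents; their part in the result was not tested.

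Whether ascorbate changed the TETi76 effect was tested directly as an interaction. For the 10 members limma called 0, where 0.631% of genes tested were called, 0.279% positive and 0.351% negative. An unadjusted p under 0.05 was seen for 6 of 10, and no share of all genes is given at that threshold. HERPUD1 gave 0.74 (SE 0.16; interval 0.37 to 1.11; limma adjusted p = 0.0963), the fall of 1.35 without ascorbate standing beside a fall of 0.61 with it. EDEM1 gave 0.62 (SE 0.17; adjusted p = 0.178), DNAJC3 0.50 (0.358) and HSPA5 0.25 (0.214). SDF2L1 gave -0.44 (0.2) and CALR -0.20 (0.199). So the rises of HSPA5 and DNAJC3 and the fall of CALR, called in K01 with ascorbate in both arms and not without it, were not shown to depend on it. In the PERK and ATF4 arm 6 of 9 were called, all positive (ATF3, TRIB3, ASNS, PPP1R15A, SESN2 and CEBPG, from 0.73 to 1.03). That list was chosen with earlier results of these data known. The other ER lists held 0 calls by limma, with 0 to 3 genes of a list at an unadjusted p under 0.05. Erythroid markers were called negative in 2 of 10 and positive in 0, with a median of -0.35 beside 0.00 over all genes; their part in the result was not tested. Over all genes the count of 79 fell to 0 without TETi76 replicate 1.

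K18 against K01, both in DMSO, compared the TET2-/- clone with the TET2+/+ clone. None of the 10 transcripts passed the test between clones: limma called 0 of 10, where 15.1% of genes tested were called, 6.86% higher and 8.21% lower. An unadjusted p under 0.05 was seen for 1 of 10, XBP1, and no share of all genes is given at that threshold. Libraries of the clones did not overlap for 6 of 10, beside 60.5% of all genes. XBP1 stood at 54.1 in both K18 libraries against 71.1 and 62.3 (log2 difference -0.29, interval -0.57 to -0.02; limma adjusted p = 0.141). HSPA5, at 112 and 108 against 111 in both, gave -0.01 with an interval of -0.13 to 0.11, and CALR, at 322 and 319 against 328 and 333, -0.04 with -0.14 to 0.05. HERPUD1 was 32.9 and 33.4 in K18, between the K01 values of 40 and 31.6 (-0.10, interval -0.36 to 0.16). EDEM1 was 9.23 and 10.8 (0.01, interval -0.27 to 0.28). HSP90B1 (199 and 186; -0.11), PDIA4 (56.4 and 56; -0.10), DNAJC3 (6.87 and 7.08; -0.13), SDF2L1 (160 and 147; 0.15) and DNAJB9 (6.56 and 6.65; -0.01) had limma adjusted p from 0.181 to 0.984. The median over the 10 was -0.07, beside -0.00 over all genes.

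Outside the 10, genes of the PERK and ATF4 arm were lower in K18. Of its 9 genes 7 were called lower in K18 and 0 higher, with a median of -0.44, where 8.21% of all genes were lower. Since the list was chosen with earlier results of these data known, the count does not test it. ATF3 was 29.4 ± 1.08 FPKM in K01 and 18.5 ± 1.27 in K18 (SD, n = 2; -0.64, limma adjusted p = 0.00212). CHAC1 gave -0.66 and lost its call with each of the 4 libraries left out in turn (up to 0.165), with a pseudocount of 0.1 (0.065) and with no filter on low values (0.057). ATF6 was the 1 lower of 11 sensors and factors (-0.62), not called without K01 DMSO replicate 2 or K18 replicate 2 (up to 0.0773). For 18 folding factors limma called 0, with 3 at an unadjusted p under 0.05, and for ERAD 0 higher and 1 lower, SYVN1, the HRD1 ligase (-0.35), not called with any of the 4 libraries left out (up to 0.164) or under quantile normalization (0.0536). Of 14 disulfide isomerases and oxidases 1 was higher and 3 lower, and of 22 translocation and traffic genes 3 were higher and 1 lower. Those higher included SPCS3, of the signal peptidase (0.55; adjusted p = 0.0581 without K18 replicate 2), and, outside the naming rule for its lower level, SEC24D (0.64). ITPR3, the calcium channel lowered by TETi76 in K01, was 14.6 ± 0.258 FPKM in K01 and 4.97 ± 0.27 in K18 (-1.39, adjusted p = 5.79e-05). Of 10 erythroid markers 4 were called lower in K18 and 0 higher. Their sum was 4471 to 4673 FPKM in K18 and 8374 to 9648 in K01, with HBE1 alone averaging 1244 and 4629. KLF1, GATA1, ALAS2 and EPOR gave log2 differences of 0.05 to 0.16, TAL1 -0.04 and HBG2 -0.32, and were not called. Of 7 myeloid markers tested 2 were called higher in K18 and 0 lower, with sums of 10 markers of 59.1 to 72.8 FPKM in K18 and 47.2 to 54.6 in K01. The only stromal or epithelial marker tested, EPCAM, was called lower (-0.98). The part of these markers in the differences between clones was not tested.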

How the data were processed

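The members and gene lists were chosen with earlier results of these data known. The labels record poly(A) selection and RNA integrity above the stated limit, but not strand. The authors deposited raw read counts for SIGM5 and FPKM for K562, in a matrix named as counts, per the file headers and values; FPKM cannot be told apart from its single-read form. Per the submitters' processing notes, hg19, STAR (no version), edgeR 3.24.3 and limma 3.38.3 were used, without roles; the quantifier is not given in the sources used here. All 14 single-sample files equalled the matrix columns, and 0 columns were unused. In K562, 26 rows with a number for a name (at most 0.0657% of a library's sum) and 2276 short-RNA rows were left out of tests. Of the FPKM sum, 2 miRNA entries took 29.6% to 36.4%. Their share of reads was not computed, so this does not show whether they changed other values. K562 read totals are approximate: they were estimated from what 1 read is worth in FPKM for single-transcript genes.

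For SIGM5, a robust quasi-likelihood fit in edgeR 4.0.16 (R 4.3.3) used TMM scaling and the filterByExpr filter, leaving 11340 genes. For K562, limma 3.58.1 was run with its trend and robust options after taking log2(FPKM + 1), which understates changes of low genes, in 1 fit of 5 groups and 10 libraries over the 12528 genes that reached an FPKM of 1 in 2 or more libraries. The lines were compared as the difference of the 2 fitted changes with Satterthwaite degrees of freedom over 9740 genes. Two-sided p-values were adjusted by Benjamini-Hochberg over all genes of a comparison, with a threshold of 0.05. Shares of all genes called refer to adjusted p, and no such share is given for counts at an unadjusted p under 0.05. All 10 members passed each filter on low values. Scripts were tested on simulated data. Named list genes were up to 2 called per direction, list and comparison ranked by log2 change, given a higher-group mean of 10 or more and no overlap; genes said to be outside the rule were chosen after their values were seen. Some list genes are not reported here. Alternatives covered scaling, filters, pseudocount, DESeq2 1.42.0 (SIGM5), fits of fewer groups, a replicate block and each library left out. Replicate numbers were not used to pair the samples in the main fits. Differences between replicates correlated from 0 to 0.14 between K562 groups and at -0.3 in SIGM5, and the cause of the latter was not tested.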

Additional observations from a re-analysis of the deposited data

Results flagged for a closer look

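For 4 of the 10 transcripts the TETi76 change differed between K01 and SIGM5 by the test of the difference itself. HERPUD1 differed by -1.91 on the log2 scale (95% confidence interval -2.24 to -1.57), from 0.56 in SIGM5 to -1.35 in K01, and XBP1 by -0.82 (-1.16 to -0.49), from 0.01 to -0.82; both were called under all 8 other settings and with each of 8 libraries left out. HSP90B1 differed by 0.40 (0.17 to 0.62), from -0.12 to 0.28, and was called with 5 of the 8 libraries left out. EDEM1 differed by 0.56 (0.23 to 0.90), from -0.04 to 0.53, and was called with 2 of 8. The lines also differ in deposited unit (counts against FPKM) and in depth, which cannot be told apart from the line.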

How the results depend on the processing

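No called result changed sign under any alternative run. With 2 libraries a group, leaving out any of them moved counts of genes called: SIGM5 from 468 to between 110 (without TETi76 replicate 1) and 1206 (without DMSO replicate 2), K01 TETi76 from 2922 to 1670 to 1801, the line difference from 1172 to 522 to 1486, ascorbate from 60 to 0 to 6, TETi76 with ascorbate against ascorbate from 3842 to 2698 to 2919, against TETi76 from 91 to 2 to 61, the interaction from 79 to 0 to 70 and K18 from 1888 to 720 to 968. Members called ranged from 0 to 3 in SIGM5 (2 as reported), 3 to 4 in K01 (5), 2 to 5 for the line difference (4) and 6 to 7 with ascorbate in both arms (7), and stayed at 0 elsewhere. With no filter on low values SIGM5 gave 738 genes and the interaction 42. In fits of only the groups compared, ascorbate gave 13, TETi76 with ascorbate against TETi76 gave 5 and the interaction 29. With the replicate number as a block the interaction gave 46, and the number of members called did not change in any comparison (2 in SIGM5, 5 in K01, 4 for the line difference, 7 with ascorbate in both arms, 0 elsewhere). A crossed pairing of the SIGM5 replicates, chosen after seeing the data, gave 1291 genes. Under quantile normalization the line difference gave 608 genes more positive and 552 more negative (478 and 694 as reported), and the interaction 38 and 27 (35 and 44). The cause of these changes in counts was not tested. Of 56 named list-gene results 24 were called under every alternative and 41 under every alternative other than leaving out a library. DNAJB9, at 4.37 to 7.37 FPKM, had an interaction of 0.06 with a wide interval of -0.67 to 0.79. The part of read depth in that width was not tested.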

Other observations

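Among 2884 genes outside the 10 with a mean of at least 10 FPKM and group means spanning at least 0.5 on the log2 scale, those with a pattern most like HSPA5 over the 10 K562 libraries were NIPBL, the cohesin loader (Pearson r = 0.97), UBE2H, a ubiquitin-conjugating enzyme of red cell maturation (0.96), JMJD1C (0.95), MTF2, a Polycomb partner (0.95), and ZNF263 (0.94). NIPBL averaged 17.9 FPKM in K01 DMSO, 15.2 with ascorbate and 22.9 with TETi76 plus ascorbate, and UBE2H 11.1, 8.6 and 26.6. The points share 5 groups, 1 table and 1 scaling, and the genes were picked for the likeness. Group means of HSPA5 itself spanned 0.36, below the limit of 0.5, so every gene searched varied more between groups than HSPA5.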
